A study of Mus musculus with 4 samples.

Results

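The genes described here encode the nuclear subunits and assembly factors of the mitochondrial respiratory chain. They were taken from a comparison of mouse embryonic stem (ES) cells with and without the transcription factor Klf5. Members were all genes whose symbol in the platform annotation begins with Ndufa, Ndufb, Ndufc, Ndufs, Ndufv, Sdha to Sdhd, Uqcr, Cox4 to Cox8 or Atp5, on probe sets of 1 gene only. This gave 94 genes of 18193 on the array, carried by 185 probe sets, and where a gene had several, the one of highest mean stood for it. The rule itself uses names and no measured values, although the family was chosen with earlier results of these data known. Total RNA of 2 wild-type (WT) and 2 Klf5 knockout (KO) ES cell clones had been hybridised to Affymetrix arrays, 1 array per clone. All 4 clones grew with serum and LIF, which holds mouse ES cells in an undifferentiated state. The labels give neither the strain nor the way the gene was deleted, nor whether the clones of a group were derived independently, so p-values measure the spread between these arrays.

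The respiratory chain sits in the inner mitochondrial membrane. Complexes I and II feed electrons from NADH and succinate to coenzyme Q, complex III passes them to cytochrome c, and complex IV passes them to oxygen. Complexes I, III and IV pump protons, and the ATP synthase, complex V, uses the proton gradient to make ATP. Most subunits are encoded in the nucleus and a few in mitochondrial DNA. Naive mouse ES cells are known to use both glycolysis and respiration.

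The deposited arrays differed in trimmed mean intensity by up to 1.65 times and were quantile normalized. Klf5 itself was bright in WT (2398 and 1782) and dim in KO (34.8 and 49.9), as labelled. The ES cell factors Pou5f1, Nanog and Sox2 were bright in all 4 clones, between 2327 and 4755. Each had both KO arrays below both WT arrays, at log2 fold changes of -0.30, -0.18 and -0.25, and none passed. The 16 ES cell markers summed to between 46810 and 47380 in WT and between 42780 and 45500 in KO. Of them 0 of 16 passed, against 4.28% of all genes. Both KO arrays lay below both WT arrays for 8 of the 16, or 50%, and above for 2, or 12.5%. Over all genes these shares were 29.7% and 25.9%. Of 27 fibroblast and feeder cell markers on the array, 25 were kept by the filter on dim probe sets, which uses the mean of all 4 arrays. Dcn and Col6a1 were kept only through their KO arrays. Their WT clones read 2.14 and 2.89 for Dcn and 11.7 and 9.27 for Col6a1, under the filter's intensity of 13.05. The 25 markers summed to between 8129 and 11140 in WT and between 26310 and 27370 in KO. Against 2.94% and 1.34% of all genes, 21 of these 25 rose and 0 fell (median log2 fold change 1.89). Among them S100a4, a calcium-binding protein, rose by 5.64 on the log2 scale, the collagen chain gene Col1a2 by 3.87, the proteoglycan gene Bgn by 3.67, and Lox, which cross-links collagen, by 3.32. In all of the following, fewer cells of a type and less RNA per cell cannot be told apart.

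Most respiratory chain genes differed little between the genotypes. After removal of dim probe sets, 91 of the 94 genes were tested, and 1 rose in KO clones (Cox7a1), 0 fell and 90 did not pass (limma, adjusted p under 0.05). Over all 13023 genes tested, 2.94% rose and 1.34% fell (4.28% either way), and over the 27022 probe sets 3.69% passed. The members' share of calls lay below that of all genes, a difference that was not tested. At an unadjusted p under 0.05, 7 members were higher and 5 lower, against 10.9% and 10.6% of all genes. The log2 fold change was smaller than 0.5 in either direction for 84 of the 91, against 82% of all genes. The 95% confidence interval of the log2 fold change stayed within 1 of 0, or a 2-fold change, for 85 of the 91 members. The same held for 10911 of all 13023 genes. The 6 other members were Cox7a1, Ndufa4l2, Ndufs4, Atp5md, Atp5e and Cox7c. The plot of all members by complex shows intervals that mostly cross 0.

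**Figure D1:**
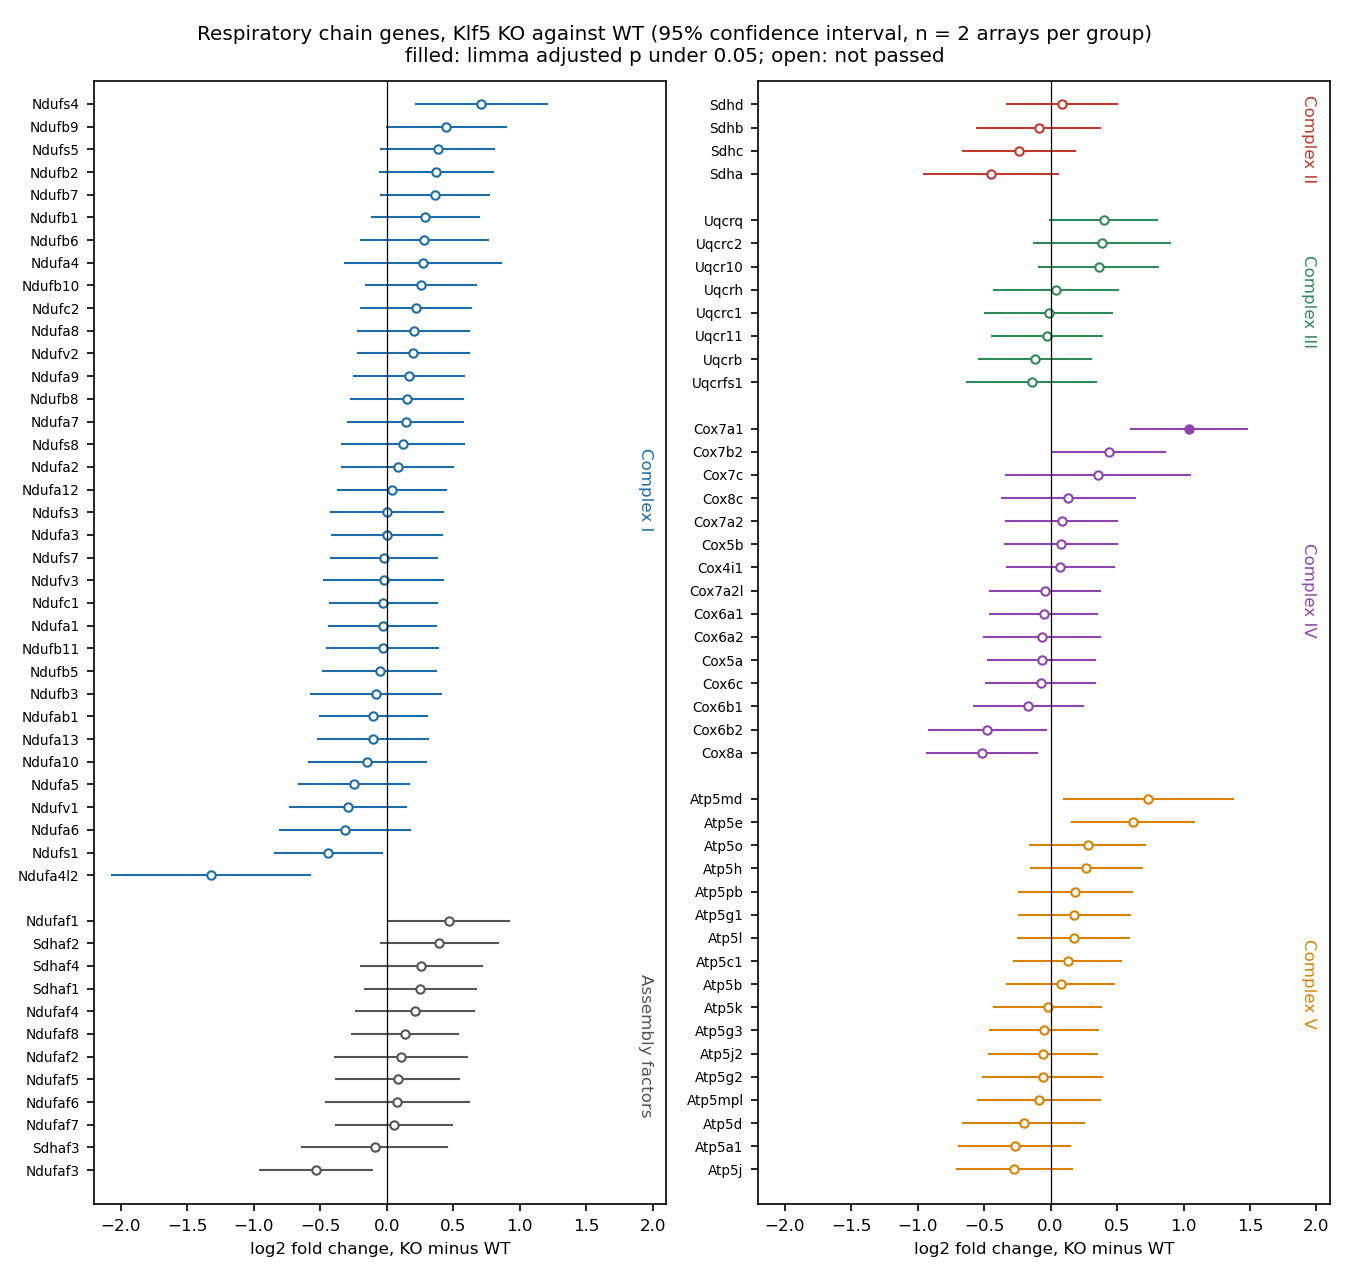
Log2 fold change (KO minus WT) of the 91 tested respiratory chain genes with its 95% confidence interval, grouped by complex, n = 2 arrays per group. Cox7a1 is the filled point, the only one that passed the limma test, and Ndufa4l2 has the lowest value at -1.32 with a wide interval.

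The members' median log2 fold change was 0.074, beside -0.024 over all genes. The sign of both medians depends on the scaling. In the values as deposited they were -0.19 for the members and -0.23 for all genes, and after centring each array on its median -0.16 and -0.19. Relative to all genes the members thus stood 0.099 higher after quantile normalization and 0.037 higher under either other scaling, and -0.0019 from all genes without KO clone 1. Of the 91, 51 had a value above 0, or 56%, against 47.2% of all genes. In the values as deposited 22 did, or 24.2% against 27.8%, and after centring 26, or 28.6% against 30.9%. By this share the members lay above all genes after quantile normalization and below them under either other scaling. After quantile normalization both KO arrays lay above both WT arrays for 30 members, or 33.0%, against 25.9% of all genes. Both lay below for 15 members, or 16.5%, against 29.7%. For the 46 others the groups overlapped, while groups lay apart for 55.6% of all genes. With centring on the median the same counts were 6 above and 43 below, against 13.2% and 41.6% of all genes.

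Complex I, the NADH dehydrogenase, had 36 genes, of which 35 were tested, and 0 rose, 0 fell and 35 did not pass. Its median was 0.040 (-0.25 as deposited and -0.21 after centring on the median), with a range from -1.32 to 0.71. The lowest value belonged to Ndufa4l2, a paralog of Ndufa4 known to be induced by hypoxia. WT clones 1 and 2 read 38.1 and 84.9, and KO clones 1 and 2 read 6.74 and 22.3. Both KO arrays were below both WT arrays, although the WT clones differed from each other by more than 2 times and KO clone 1 lay under the intensity of 13.05 at which dim probe sets were removed. The log2 fold change was -1.32 ± 0.33 (standard error, with 2 arrays in each group, limma, adjusted p = 0.065). It passed under 6 of 13 alternatives (adjusted p from 8.8e-05 to 0.34), with values from -2.11 at a pseudocount of 1 to -0.66 at one of 64. Ndufa4 itself, a protein first assigned to complex I and now known as a partner of complex IV, read 1641 and 1776 in WT, against 2730 and 1563 in KO. Its groups overlapped, since KO clone 1 was the highest array and KO clone 2 the lowest. Both genes are counted here because complexes were assigned by the prefix of the symbol. Apart from this pair the lowest value in complex I was -0.44, that of Ndufs1.

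The largest positive value in complex I was that of Ndufs4, an accessory subunit of the NADH-binding arm whose loss in mice gives a Leigh-like disease. It read 715 and 690 in WT, against 1402 and 961 in KO. The KO arrays were both higher, with a wide gap between them, and the log2 fold change was 0.71 ± 0.22 (limma, adjusted p = 0.12). A second probe set had 0.75, while 2 dim ones had 0.022 and 0.089. Ndufb9, a membrane arm subunit, read 2797 and 2360 in WT, against 3858 and 3201 in KO (log2 fold change 0.45, limma, adjusted p = 0.24). At the other end Ndufs1, the iron-sulphur subunit that carries electrons out of the NADH site, read 1580 and 1455 in WT, against 1103 and 1125 in KO. Here the clones of each group lay close together and the groups did not overlap, with a log2 fold change of -0.44 ± 0.18 (limma, adjusted p = 0.21).

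Subunits of complex I were also split by their place in the enzyme. The conserved core of the peripheral arm, which holds the flavin and the iron-sulphur clusters, was measured by 6 genes, with a median of -0.0076. In it 1 gene had both KO arrays above and 2 had both below, or 16.7% and 33.3%, against 25.9% and 29.7% of all genes. Ndufs8 overlapped on its chosen probe set (0.12). Of its other probe sets 4 had both KO arrays above (0.25 to 0.43), and 1 overlapped at -0.12. The 8 accessory subunits of that arm had a median of 0.061. For the 18 tested accessory subunits of the membrane arm the median was 0.18, and 8 of 18 had both KO arrays above both WT arrays and 0 below (25.9% and 29.7% of all genes). After centring on the median this arm had 0 above and 10 below (13.2% and 41.6% of all genes), with a median of -0.11, and as deposited its median was -0.14. The core's median was then -0.31 and -0.34, and that of the accessory subunits of the peripheral arm -0.20 and -0.24. The order of these groups was thus the same under the 3 scalings, while the sign turned for both accessory groups. The core's median was close to 0 after quantile normalization, so that its sign there has no weight, and negative under the other scalings. Ndufab1, the mitochondrial acyl carrier protein, had -0.10 on its chosen probe set, while 3 of its 4 other probe sets were of opposite sign.

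Complex II, the succinate dehydrogenase that also serves the citric acid cycle, has 4 subunits, and 0 of 4 passed. Sdha, which binds the flavin, read 1432 and 1778 in WT, against 983 and 1384 in KO, with both KO arrays lower and the KO clones 0.49 apart on the log2 scale, more than the difference between the groups (-0.45 ± 0.22, limma, adjusted p = 0.30). Sdhb, the iron-sulphur subunit, had -0.089 with overlapping groups. The membrane anchors Sdhc and Sdhd had -0.24 and 0.084. A second probe set had -0.34 for Sdhc, with both KO arrays lower, and 0.40 for Sdhd, with both KO arrays higher. Neither passed. The complex's median of -0.16 was the lowest of the 5 complexes (-0.49 as deposited and -0.45 after centring), and it rests on 4 genes.

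Complex III, the cytochrome bc1 complex, was measured by 8 genes, and 0 of 8 passed. Uqcrq, a small subunit, read 1530 and 1630 in WT, against 2124 and 2053 in KO, so that the clones of each group lay close together and the groups apart (log2 fold change 0.40 ± 0.18, limma, adjusted p = 0.25). The core protein gene Uqcrc2 had 0.39 with overlapping groups, and its other probe set had 0.61 with groups apart and did not pass. Uqcrfs1, the Rieske iron-sulphur protein that hands electrons to cytochrome c1, read 2161 and 1580 in WT, against 1533 and 1828 in KO, with overlapping groups and a value of -0.14. Uqcrb read between 8201 and 9991 in all 4 arrays and had -0.11. The median was 0.013 (-0.17 as deposited and -0.13 after centring).

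Complex IV, cytochrome c oxidase, held the 1 member that passed. Cox7a1 encodes the isoform of subunit VIIa best known from heart, skeletal muscle and brown fat. WT clones 1 and 2 read 292 and 308, and KO clones 1 and 2 read 711 and 565. The WT clones nearly coincided, and both KO clones lay clearly above them. The gene rose by 1.04 ± 0.19 on the log2 scale (2.06-fold, 95% confidence interval 0.60 to 1.48, limma, adjusted p = 0.023), on its only probe set. It passed under 6 of 14 alternatives (adjusted p from 0.0031 to 0.51) and failed whichever of the 4 arrays was removed (adjusted p = 0.074, 0.077, 0.16 and 0.058 for WT clones 1 and 2 and KO clones 1 and 2). It also failed with no normalization, with centring on the median, with a pseudocount of 1 and with no filter. Its direction was the same under all 14. The fibroblast markers moved in the same direction, 25 of 25 with both KO arrays higher, against 25.9% of all genes. None was listed at 0, and they summed to at least 26310 in KO against at most 11140 in WT. Their part in this result was not tested.

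**Figure D2:**
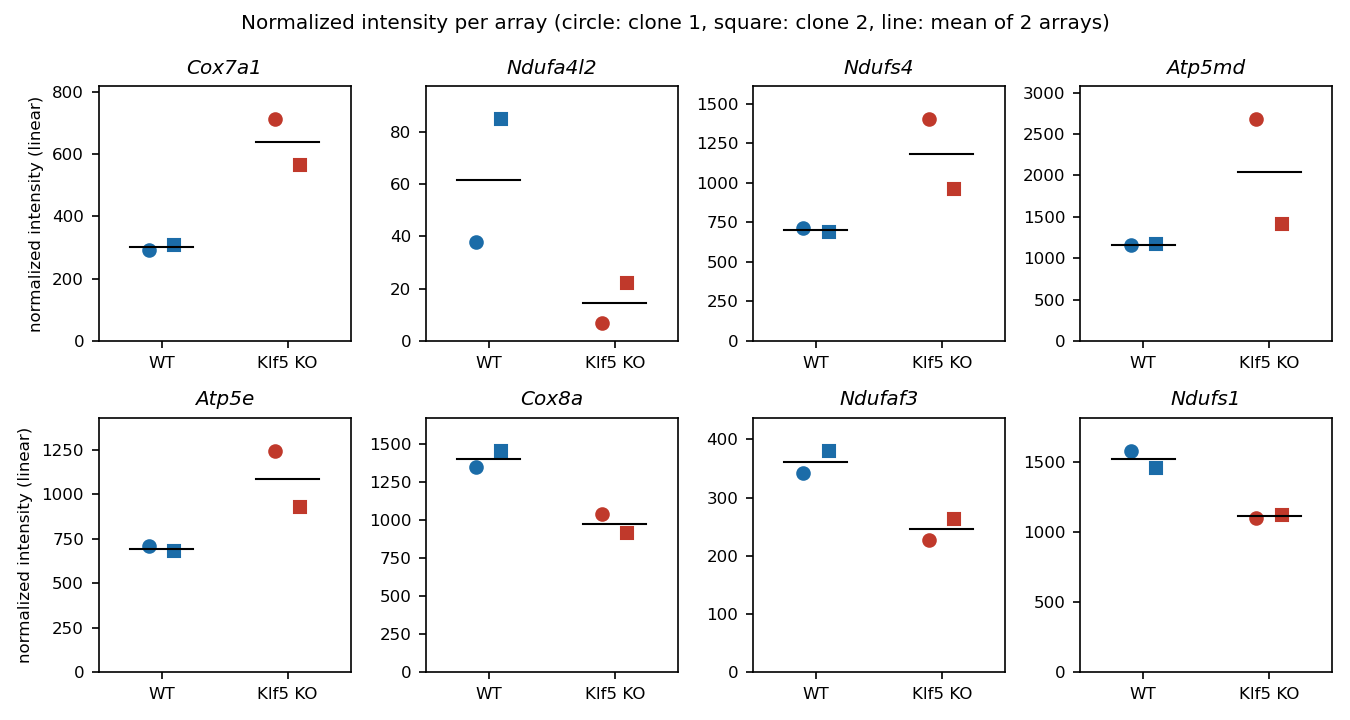
Normalized intensity on a linear axis from 0 in each of the 4 arrays for the 8 members with the smallest unadjusted p-values, each with a line at its group mean. The 2 WT points of Cox7a1, Ndufs4, Atp5md and Atp5e lie close together, and KO clone 1 is the higher KO point in each of them.

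The other form of this subunit was nearly level. Cox7a2, the form found in most tissues, read 7508 and 6575 in WT, against 7778 and 7125 in KO. The groups overlapped, at a log2 fold change of 0.083 (95% confidence interval -0.33 to 0.50). Cox7a2l, a related protein that joins complexes III and IV into supercomplexes, had -0.043 (-0.46 to 0.37). The difference between Cox7a1 and its paralogs was not tested. The 250 bases before the listed start of both isoform genes are shown because the isoforms' readings differed. Those of Cox6a1 are added as an example that holds the NRF1 and ETS motifs, found in 24.4% and 28.2% of member promoters. Sequences are from RefSeq (GRCm38.p6), on the strand of the gene, with capitals for matches to the motifs described further on. The windows are chr7:30183921-30184170 on the plus strand for Cox7a1, chr9:79759854-79760103 on the minus strand for Cox7a2 and chr5:115348959-115349208 on the minus strand for Cox6a1.
Cox7a1: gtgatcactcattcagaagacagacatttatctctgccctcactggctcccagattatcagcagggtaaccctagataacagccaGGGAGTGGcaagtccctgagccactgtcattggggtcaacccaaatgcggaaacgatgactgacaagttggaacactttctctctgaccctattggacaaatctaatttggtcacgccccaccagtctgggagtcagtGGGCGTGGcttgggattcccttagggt
Cox7a2: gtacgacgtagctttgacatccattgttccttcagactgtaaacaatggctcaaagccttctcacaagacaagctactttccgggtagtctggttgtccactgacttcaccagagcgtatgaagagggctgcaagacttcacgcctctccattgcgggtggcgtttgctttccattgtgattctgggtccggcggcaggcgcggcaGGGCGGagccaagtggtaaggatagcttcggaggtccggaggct
Cox6a1: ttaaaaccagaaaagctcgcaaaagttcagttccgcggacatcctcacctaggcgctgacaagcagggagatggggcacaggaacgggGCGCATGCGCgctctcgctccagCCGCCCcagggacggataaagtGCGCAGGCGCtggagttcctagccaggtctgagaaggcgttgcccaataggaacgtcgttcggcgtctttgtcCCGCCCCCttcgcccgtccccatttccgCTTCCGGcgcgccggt
In the window of Cox7a1 the capitals mark 2 matches to a CACCC-like motif, and in that of Cox7a2 a single GC box. The window of Cox6a1 holds 2 matches to the NRF1 motif, 1 to the ETS motif, 2 GC boxes and 1 CACCC-like match that overlaps a GC box. The GC content of the windows was 51.2% for Cox7a1, 54.8% for Cox7a2 and 62.8% for Cox6a1.

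The remaining subunits of complex IV did not pass, and its median was -0.043 (-0.12 as deposited and -0.085 after centring). Of 17 genes 15 were tested, with 3 above and 5 below in both KO arrays, or 20% and 33.3%, near the 25.9% and 29.7% of all genes. Cox8a, the common form of subunit VIII, read 1343 and 1453 in WT, against 1036 and 912 in KO. The groups lay apart, at -0.52 ± 0.18 on the log2 scale (limma, adjusted p = 0.16). Its other probe sets had -0.36 and -0.52. Cox6b2, a form of subunit VIb known from testis, read 643 and 664 in WT, against 525 and 411 in KO (-0.48, limma, adjusted p = 0.21), and its common counterpart Cox6b1 had -0.17. Cox6a1 was level at -0.053, with arrays between 5435 and 5808. Cox4i1, the common form of subunit IV, had 0.074, with a range of 6567 to 7268.

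Other isoforms with restricted expression had low intensities, and 0 of them passed. Cox6a2, the muscle form of VIa, read between 16.2 and 24.4, Cox7b2 between 10.5 and 23.2, and Cox8c, a testis form of VIII, between 64.4 and 102. Cox7b2 had both KO arrays higher (0.44 ± 0.19, limma, adjusted p = 0.23), from WT values under the intensity of the filter. Cox4i2, a form of subunit IV linked to low oxygen and lung, and Cox8b, a muscle form of VIII, were removed as dim, with no array above 13.1. Cox7c, a small subunit, was represented by a probe set between 95.6 and 209 whose only high array was KO clone 1.

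Complex V, the ATP synthase, had 17 genes, and 0 rose, 0 fell and 17 did not pass. Its median was 0.075 (-0.084 as deposited and -0.047 after centring), with 9 genes above and 2 below in both KO arrays (52.9% and 11.8%, against 25.9% and 29.7% of all genes). After centring the counts were 1 and 7, and the 41.2% below was then close to the 41.6% of all genes. Atp5b, the beta subunit that makes ATP, was close to level and read 6134 and 6508 in WT, against 6567 and 6751 in KO. Its log2 fold change was 0.075 (95% confidence interval -0.33 to 0.48). Atp5a1, the alpha subunit, read 5083 and 5108 in WT, against 3880 and 4589 in KO (-0.27), and 1 of its 2 other probe sets was of opposite sign. Atp5j, a stalk subunit, had the lowest value of the complex at -0.27.

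A pair of small subunits was at the top of the complex. Atp5md, a small membrane protein of the synthase, read 1153 and 1165 in WT, against 2677 and 1407 in KO, and Atp5e, the epsilon subunit of the rotor, 707 and 681 in WT, against 1244 and 929 in KO. In both, the WT clones lay close together, both KO clones were higher, and KO clone 1 stood well above KO clone 2. The log2 fold changes were 0.74 ± 0.28 (limma, adjusted p = 0.19) and 0.62 ± 0.20 (limma, adjusted p = 0.13). Without KO clone 1 they were smaller, at 0.27 and 0.41. The genes for the c-ring, which turns as protons pass and which is encoded by 3 genes with the same mature protein, had 0.18 for Atp5g1, -0.058 for Atp5g2 and -0.051 for Atp5g3. Of the 3, Atp5g1 alone had both KO arrays above both WT arrays, and its value was -0.063 as deposited and -0.025 after centring.

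Assembly factors build complexes I and II without being part of them. None of 12 rose or fell (0 of 12), with a median of 0.12 (-0.19 as deposited and -0.15 after centring). Of the 12, 10 values were above 0, or 83.3%, against 47.2% of all genes. As deposited and after centring 2 were above 0, or 16.7% each time, against 27.8% and 30.9% of all genes. Ndufaf1, a factor for the membrane arm of complex I, read 354 and 414 in WT, against 598 and 479 in KO (0.47 ± 0.20, limma, adjusted p = 0.23). Sdhaf2, which helps to attach the flavin to Sdha, read 414 and 522 in WT, against 639 and 595 in KO (0.40, limma, adjusted p = 0.29). Ndufaf3 went the other way, at 343 and 381 in WT, against 227 and 264 in KO, and these groups lay apart (-0.53 ± 0.19, limma, adjusted p = 0.15). Sdhaf3 had -0.092 with overlapping groups. In 11 of the 12, KO clone 1 read above KO clone 2. Without KO clone 1 the median was 0.023, and without KO clone 2 it was 0.29.

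The KO clones differed from each other in these genes and in related lists. KO clone 1 read above KO clone 2 for 67 of 91 members, or 73.6%, against 42.8% of all genes, and the median difference was 0.13 on the log2 scale, against -0.054. The members' share was also above that of all genes under the other scalings, at 63.7% against 30.2% as deposited and 67.0% against 32.1% after centring. After quantile normalization the share was 76.5% for the assembly factors outside the name rule and 60.5% for the mitochondrial ribosomal proteins. It was 60% for the other electron carriers, 58.3% for coenzyme Q synthesis and 57.9% for mitochondrial genome upkeep and transcription. For carriers of the mitochondrial membranes it was 35.7% and for the citric acid cycle 23.5%, both under the share of all genes. Over the members the WT clones showed no such gap. WT clone 1 lay above WT clone 2 for 45.1% of members and 46.3% of all genes after quantile normalization. After centring the shares were 75.8% and 76.3%. In most of the related lists WT clone 1 was more often the lower one after quantile normalization. It lay above for 35.3% of the outside assembly factors, 38.2% of the ribosomal proteins, 25% of coenzyme Q synthesis and 23.5% of the citric acid cycle. The share was 40% for the other electron carriers and 42.9% for the membrane carriers, but 63.2% for mitochondrial genome upkeep and transcription. Beta-actin control probe sets at both ends of the transcript report on RNA quality, and their log2 ratio, 3′ end over 5′ end, was 0.75 in KO clone 1 and between 0.44 and 0.52 in the other arrays, while the Gapdh ratio lay between -0.33 and -0.29 in all 4. The part of RNA quality in this difference was not tested. Among the members with KO clone 1 below KO clone 2 were Sdha and Sdhb.

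**Figure D3:**
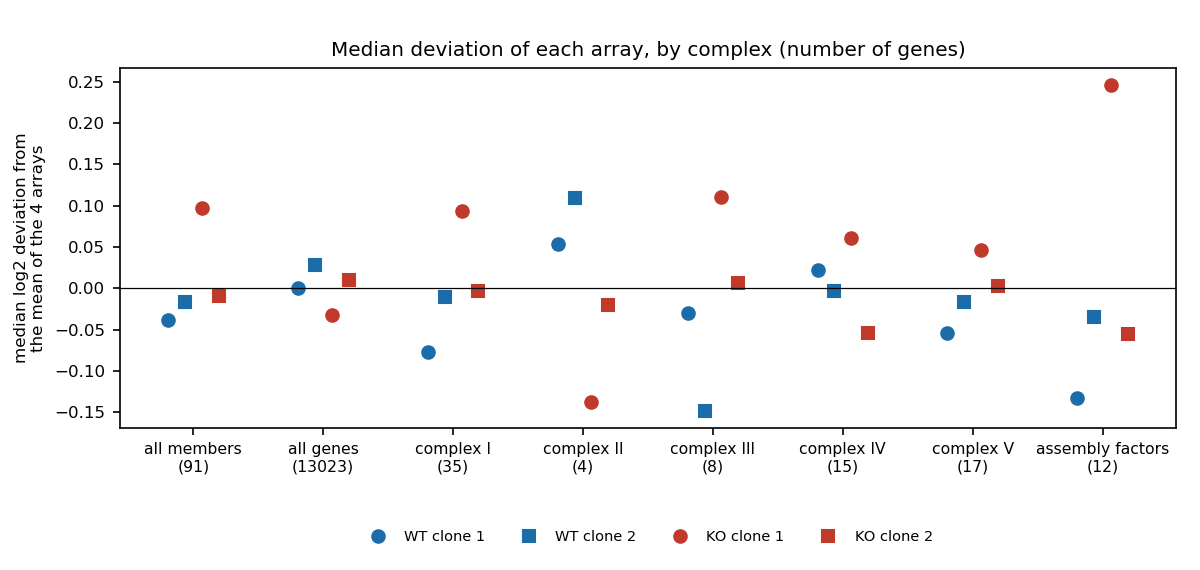
Median over genes of each array's log2 deviation from the mean of the 4 arrays, for all members, all genes and each complex, with the number of genes under each name. KO clone 1 is the highest array for all members (0.097) and for the assembly factors (0.25) and the lowest for complex II (-0.14), while KO clone 2 lies close to 0 in most groups.

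**Figure D4:**
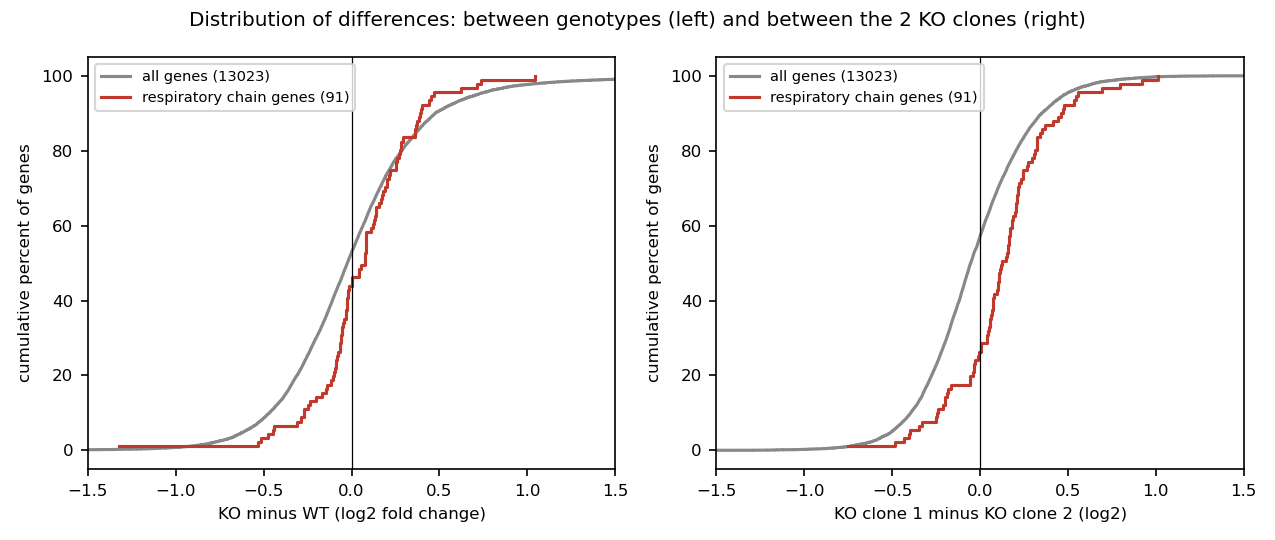
Cumulative percent of genes against the log2 difference between KO and WT (left) and between KO clone 1 and KO clone 2 (right), for the 91 members and for all 13023 genes. On the left the members form a steeper curve around 0, and on the right their curve is shifted to positive values, with 73.6% above 0 against 42.8%.

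Of 10 other carriers that bring electrons to coenzyme Q or cytochrome c or regulate the synthase, 1 rose, 1 fell and 8 did not pass, beside 2.94% of all genes that rose and 1.34% that fell. Gpd2, the mitochondrial glycerol-3-phosphate dehydrogenase, which passes electrons from cytosolic NADH to coenzyme Q, read 1221 and 938 in WT, against 416 and 528 in KO. Both KO clones were far below both WT clones, and the gene fell by 1.16 ± 0.21 on the log2 scale (limma, adjusted p = 0.021). This call was lost when WT clone 1 was removed (adjusted p = 0.077) or either KO clone (0.17 and 0.063), with a pseudocount of 1 and with no filter. Sqor, which oxidises sulphide and also feeds coenzyme Q, rose by 0.82 ± 0.18 (limma, adjusted p = 0.042), from 22.1 and 25.1 in WT to 52.3 and 55.0 in KO, and passed under 4 of 13 alternatives. Cytochrome c (Cycs) and cytochrome c1 (Cyc1) were level, at 0.015 and 0.0043.

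Of 34 assembly factors outside the name rule, 1 rose, 0 fell and 33 did not pass (median 0.041). It was Coa3, a factor for the first steps of complex IV assembly, at 1066 and 1159 in WT, against 2213 and 1991 in KO, a rise of 0.91 ± 0.18 (limma, adjusted p = 0.030) that did not pass whichever array was removed (adjusted p between 0.080 and 0.18). It passed under 6 of 14 alternatives, and its lowest value was 0.62 with no normalization (adjusted p = 0.60). Among 12 genes of coenzyme Q synthesis 0 rose and 1 fell. That gene, Pdss2, a subunit of the enzyme that makes the isoprenoid tail, read 150 and 133 in WT, against 55.4 and 80.6 in KO and fell by 0.92 ± 0.21 (limma, adjusted p = 0.047). It passed under 7 of 14 alternatives. Of 17 citric acid cycle genes 0 passed (median -0.095, with 4 of 17 above 0, against 47.2% of all genes).

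Regulators of mitochondrial genes did not pass either, with 0 of 19 (median -0.014). Nrf1, which activates many respiratory genes, had -0.014, Gabpa, the DNA-binding part of GABP, -0.34, and Tfam, which packs mitochondrial DNA, 0.13. Ppargc1b, a coactivator of respiratory genes, was singled out once the values were known. It read 67.6 and 62.2 in WT, against 14.2 and 34.1 in KO, a log2 fold change of -1.05 ± 0.25 (limma, adjusted p = 0.055). Carriers of the mitochondrial membranes also had 0 of 14 past the threshold (median 0.11). Of 76 mitochondrial ribosomal protein genes 1 rose, Mrps24 (1.01 ± 0.18, limma, adjusted p = 0.021), and 0 fell. It read 1229 and 1203 in WT, against 2656 and 2293 in KO. The call was lost when WT clone 2 was removed (adjusted p = 0.091) or either KO clone (0.15 and 0.066) and was kept without WT clone 1, and it passed under 7 of 14 alternatives. Their median, 0.10, was close to that of the respiratory chain genes.

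**Figure D5:**
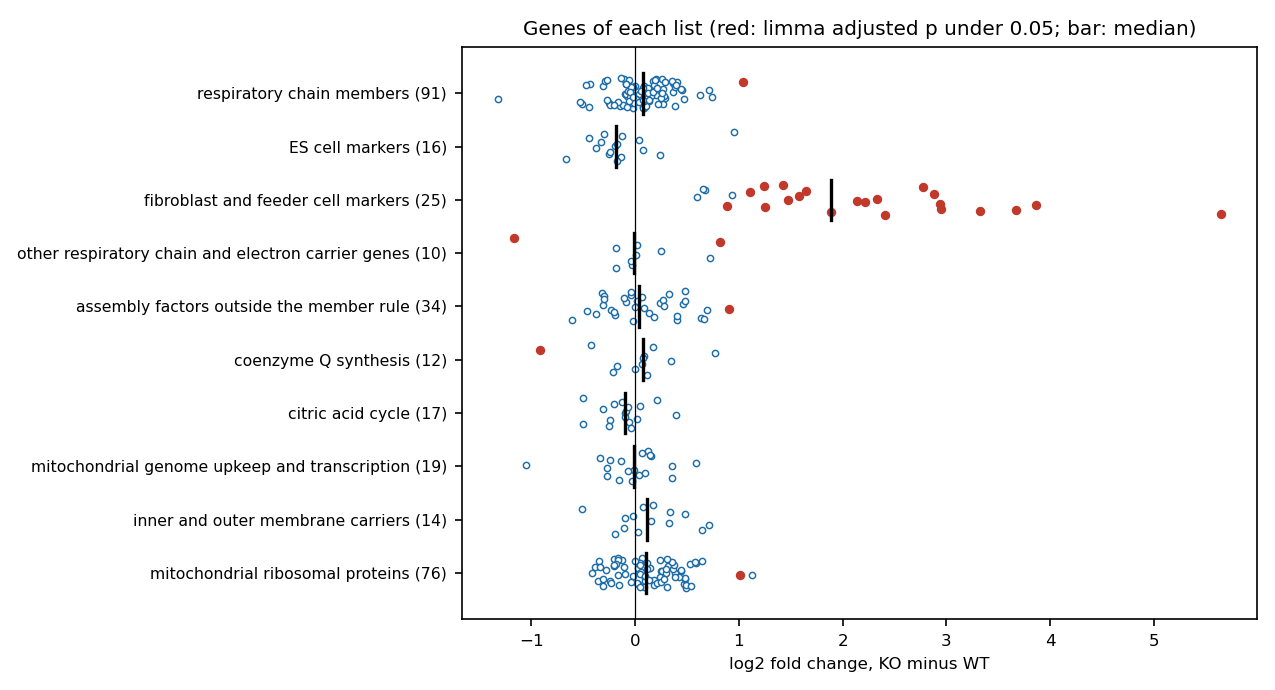
Log2 fold change (KO minus WT) of each gene in the respiratory chain, the marker lists and the other mitochondrial lists, with the number of genes in parentheses and a bar at the median. All mitochondrial lists centre near 0, with medians between -0.095 and 0.11, while the fibroblast and feeder cell markers centre at 1.89.

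Promoter letters were counted as a property that the name rule did not use. Of the 94 genes 78 had a promoter in the RefSeq table (GRCm38.p6, 250 bases before to 50 after a start), and a gene counted if any of its windows held the motif on either strand. The NRF1 motif, GCGC and TGCGC parted by any 1 base, was in 24.4% of member promoters, against 10.9% of the 10483 tested genes in the table and 5.19% of all 27025. The ETS motif CCGGAAG, as bound by GABP, was in 28.2%, against 18.9% and 9.93%, and the YY1 motif AANATGGCG in 14.1%, against 5.61% and 2.76%. The motif of the oestrogen-related receptors, TCAAGGTCA, was in 2.56%, against 0.372% and 0.466%. The GC box GGGCGG and the CACCC-like motif of Kruppel-like factors, CCNCNCCC, which can overlap each other, were in 50% and 59%, below the 67.5% and 72.9% of tested genes and above the 38.2% and 51.9% of all genes in the table. Members with the CACCC-like motif had a median log2 fold change of -0.015 (45 genes), and those without it 0.11 (31 genes). With and without the NRF1 motif the medians were 0.034 (18 genes) and 0.077 (58 genes). They were 0.047 and 0.10 for the GC box, 0.10 and 0.064 for ETS, and 0.075 and 0.079 for YY1. For the receptor motif they were 0.017 (2 genes) and 0.077. The medians were taken after quantile normalization only, and the same medians over all genes were not computed. These counts and medians describe letters in a window, with no test, and a match is not a site of binding.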

How the data were processed

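Members and gene lists were chosen with earlier results of these data known. Expression was measured in 4 ES cell clones on 1 Affymetrix array each, grouped by title. The authors deposited 1 linear intensity per probe set and array. How probes were summarised, corrected for background and scaled is not stated in the labels. No further background was subtracted. Intensities were quantile normalized (limma 3.58.1, R 4.3.3), log2(intensity + 16) was taken, which understates changes of dim genes, and the 64 control probe sets and those below the 40th percentile of mean log2 were left out, leaving 27022. The model (lmFit, eBayes) compared KO with WT, with Benjamini-Hochberg adjustment over all of them and 0.05 as the threshold. Each gene took its probe set of highest mean, suffix _x_at last. The code was tested on simulated data, where 21.2% of changes of 1 on the log2 scale passed and 98.5% of those of 2. A gene that did not pass can thus still differ by 2-fold. Of 91 tested members, 50 had several kept probe sets, of which 15 had one of opposite sign and 0 had another past the threshold. Genes were named by a rule: Klf5, members past the threshold, the 2 highest and 2 lowest of each complex and of the assembly factors, isoforms, and up to 4 called genes of each other list. Members named beyond it were chosen after their values were seen. Alternatives changed the pseudocount, filter, scaling, variance prior, block, probe set choice and arrays. Symbols are those of the platform annotation, and the number of arrays limits the precision.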

Additional observations from a re-analysis of the deposited data

How the results depend on the processing

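The clone numbers do not pair the arrays by any label, and the deviations of same-numbered clones correlated at 0.055 across probe sets. With the clone number as a replicate block 1390 probe sets and 2 members (Cox7a1 and Ndufa4l2) passed, so that Ndufa4l2 was added and no other member's call was changed. Over all probe sets 996 passed, against 189 with a pseudocount of 1, 2060 with one of 64, 190 with no filter, 332 with no normalization between arrays, 2058 after centring on the median and 1955 with a variance trend. Leaving out 1 array gave from 203 (KO clone 1) to 653 (WT clone 1), with 489 without WT clone 2 and 353 without KO clone 2. Of the members 1 passed, against 0 with a pseudocount of 1, 0 with no filter, 4 with a pseudocount of 64 (Cox7a1, Ndufs4 and Atp5e higher, Cox8a lower), 4 after centring (Ndufa4l2, Cox6b2, Cox8a and Ndufaf3, all lower), 4 with a variance trend (Cox7a1, Ndufs4 and Atp5e higher, Ndufa4l2 lower), 2 when all kept probe sets of a gene were averaged (Cox7a1 and Ndufa4l2) and 0 to 1 with an array left out. The 1 was Ndufa4l2, without WT clone 1. The member median of 0.074 was -0.19 with no normalization and -0.16 after centring, and from -0.0037 (without KO clone 1) to 0.11 with an array left out. The cause of these shifts was not tested. Among named genes with values near 0 the sign turned as follows. With no normalization Atp5g1 had -0.063, Cox4i1 -0.0027, Cox8c -0.053, Ndufa4 -0.036 and Sdhd -0.24. After centring Atp5g1 had -0.025, Cox8c -0.015 and Sdhd -0.20. With the mean of probe sets Cox7a2l had 0.00053 and Cox8c -0.12. With an array left out values ranged from -0.36 to 0.090 for Uqcrfs1, -0.26 to 0.12 for Atp5g2, -0.11 to 0.00087 for Atp5g3, -0.0098 to 0.19 for Cox7a2, -0.15 to 0.059 for Cox7a2l, -0.15 to 0.42 for Cox8c, -0.12 to 0.67 for Ndufa4, -0.31 to 0.13 for Sdhb, -0.017 to 0.19 for Sdhd, -0.23 to 0.099 for Cox6a2 and -0.44 to 0.26 for Sdhaf3. A lone array left in a group was assumed to vary like the other group. Taking the brightest probe set whatever its suffix, an alternative chosen after seeing the data, left 1 member called.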
